A study of Homo sapiens with 6 samples.

Results

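The cytosolic chaperones and their partners were followed in U2OS cells, an established human osteosarcoma line, after a microRNA was raised. The genes were chosen by symbol: the HSP70, HSP90, HSP110, HSP60, HSP10 and small heat shock genes (HSPA, HSP90A, HSPH, HSPD, HSPE, HSPB), the J-domain genes (DNAJA, DNAJB, DNAJC), the chaperonin subunits (CCT2 to CCT8 and TCP1), HSF1, HSF2 and BAG1 to BAG6. HSPA5, HSP90B1, DNAJB9, DNAJB11, DNAJC3 and DNAJB12 were left out, as were 3 pseudogenes, CCT6P1, DNAJB3 and HSPA7. This gave 85 of the 20046 genes with a probe, of which 65 were detected well enough to be tested among 10734 such genes in all. HSF2 was not analysed here. The symbols also take in genes of other compartments: 8 of the 85 were listed here as mitochondrial and 5 as endoplasmic reticulum genes. These lists may be incomplete, and the remaining 72, mostly cytosolic or nuclear, were not sorted by compartment.

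Both groups were U2OS cells harvested 48 h after transfection, one given a miR-542-3p mimic (a synthetic duplex that acts as the mature microRNA) and the other a negative control mimic. Each group had 3 Illumina bead arrays, numbered 1 to 3 in the labels, which do not say whether the RNA came from separate cultures. The p-values therefore measure only the spread between these arrays, which may be technical. Every value comes from 1 cell line and 1 time after transfection, and the sources used here do not give the mimic dose.

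Chaperones bind unfolded or unfinished proteins and keep them from clumping. HSP70 proteins work in cycles of ATP use: a J-domain protein brings the client and starts hydrolysis, and an exchange factor such as a BAG protein or an HSP110 lets the client go. HSP90 matures kinases and hormone receptors, the ring-shaped chaperonin CCT (also called TRiC) folds actin and tubulin, and small heat shock proteins hold damaged clients without using ATP. HSF1 is the transcription factor that switches many of these genes on when proteins misfold.

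The arrays had median intensities of 132.2 to 151.4. Of 47323 probes, each array detected 17848 to 18652 (detection p under 0.05). Correlations were 0.983 to 0.990 within a group and 0.956 to 0.968 between groups. VIM, a mesenchymal filament gene, and COL1A1, a collagen of bone, were detected on all arrays. Of 8 mesenchymal and bone markers, 6 were detected on all 6 arrays, and their summed signal ran from 23183 to 27217 in control and from 23135 to 23776 in mimic arrays. Within this list SPP1 and SPARC were called lower and RUNX2 higher (limma). Of 10 markers of other cell types, 2 (CD68 and EPCAM) were detected on all arrays and 4 (CD3E, CDH1, KRT5 and CDH5) on none. The summed signal of the 10 ran from 582.4 to 721.2 in control arrays and from 445.3 to 552.7 in mimic arrays. EPCAM was called lower. VWF was also called lower, but it was detected on 3 control arrays and no mimic array. It passed the filter through the control group alone, so its call is not counted as support. The part of either list in the results below was not tested.

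Most chaperone genes did not pass the test. Of the 65 tested, 5 fell with the mimic (DNAJA4, CCT6A, HSPB8, DNAJC24 and DNAJB2), 4 rose (HSPA12A, TCP1, DNAJC5 and DNAJA1) and 56 did not pass (limma, Benjamini-Hochberg adjusted p under 0.05 over all rows). These 9 make 13.8% of the tested chaperone genes, beside 26.4% of all 10734 genes (12.7% higher and 13.7% lower). The 2 shares were not tested against each other. The median change, mimic minus control on the log2 scale, was 0.10 over the chaperone genes and 0.02 over all genes. The median size of the change, whatever its direction, was 0.31 for the chaperone genes and 0.29 over all genes. A change of at least 2-fold was called for 2 members, DNAJA4 and CCT6A, and for 7.64% of all genes. The arrays of the groups did not overlap for 27 members, 15 higher and 12 lower with the mimic, which is 41.5% of those tested beside 45.0% of all genes. In a whole-culture sample, fewer cells that make a transcript and less of it in each cell cannot be told apart.

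**Figure D1:**
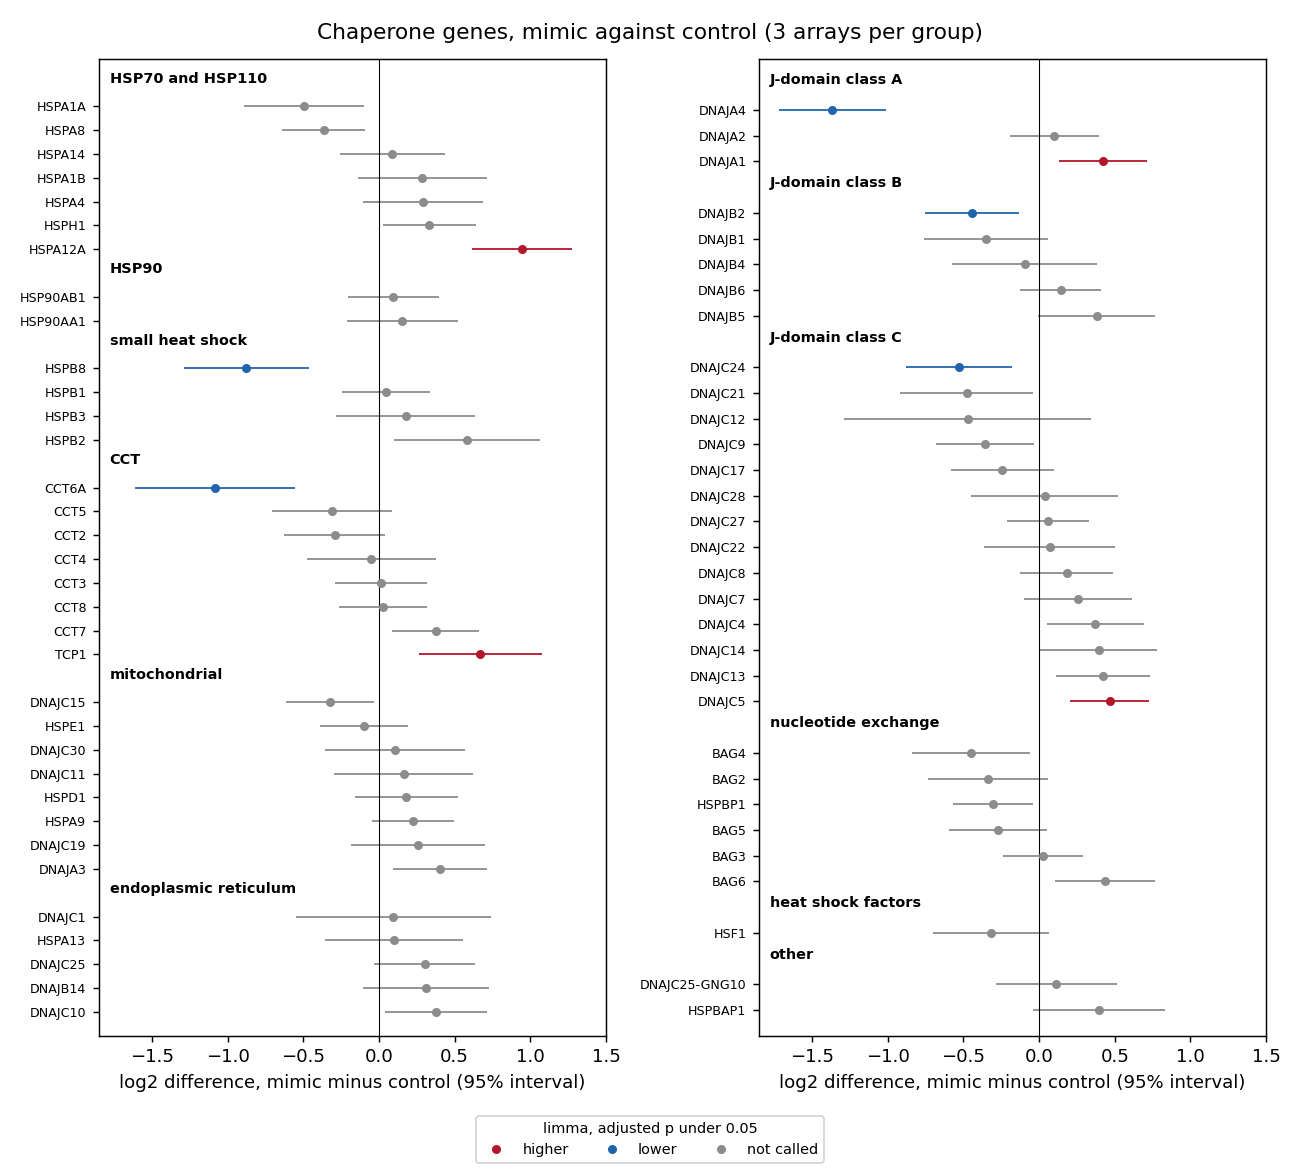
Log2 difference between mimic and control arrays for the 65 tested chaperone genes, grouped by role, with limma's 95% interval (n = 3 arrays per group). Blue points are the 5 genes called lower, red points the 4 called higher and grey points the 56 not called; most intervals reach or come close to 0.

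The class A J-domain proteins, which resemble bacterial DnaJ and hand clients to HSP70, held the largest change and one of opposite sign. DNAJA4 read 7.43, 7.75 and 7.32 on the log2 scale in control arrays 1 to 3, and 6.12, 6.29 and 5.99 in mimic arrays 1 to 3. Every mimic array lay more than 1 log2 unit below every control array. The fall was 2.58-fold, a log2 change of -1.37 ± 0.15 (SE; limma adjusted p = 0.000812), with an interval from -1.72 to -1.01. Its size, but not its call, depended on the background treatment: the change was -0.68 when none was subtracted, -0.86 with normexp and -0.68 in the deposited log2 values.

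DNAJA1, the class A partner found in nearly every cell type, moved the other way by a much smaller amount. Its values were 13.08, 13.22 and 13.06 in control arrays and 13.41, 13.66 and 13.56 in mimic arrays. The groups did not overlap, and the gene rose 1.34-fold (log2 change 0.42 ± 0.13, SE; limma adjusted p = 0.0439). Dropping any 1 of the arrays ended the call (limma adjusted p 0.0577 to 0.134), as did keeping dim probes (0.0764) and blocking arrays by number (0.0542). DNAJA2, the third cytosolic gene of the class, gave 10.37 ± 0.13 in control and 10.47 ± 0.10 in mimic arrays (SD, n = 3), a difference of 0.10 with an interval from -0.19 to 0.39.

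Among the 4 small heat shock genes tested, HSPB8 fell and the other 3 did not pass, so 25.0% were called beside 26.4% of all genes. HSPB8 acts with BAG3 to steer damaged proteins to autophagy. It read 9.66, 9.11 and 9.34 in control arrays and 8.64, 8.24 and 8.61 in mimic arrays. All mimic values were below all control values, a fall of 1.84-fold (log2 change -0.88 ± 0.18, SE; limma adjusted p = 0.0103). BAG3, its partner, read 10.15 ± 0.06 in control and 10.17 ± 0.05 in mimic arrays (SD, n = 3), with an interval of the change from -0.24 to 0.29. HSPB1, the widespread small heat shock protein HSP27, changed by 0.05 with an interval from -0.24 to 0.34. HSPB2 gave a change of 0.58 ± 0.21 (SE; limma adjusted p = 0.0822). It was called higher with array weights, with the replicate block and without mimic replicate 2 (adjusted p = 0.0296).

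**Figure D2:**
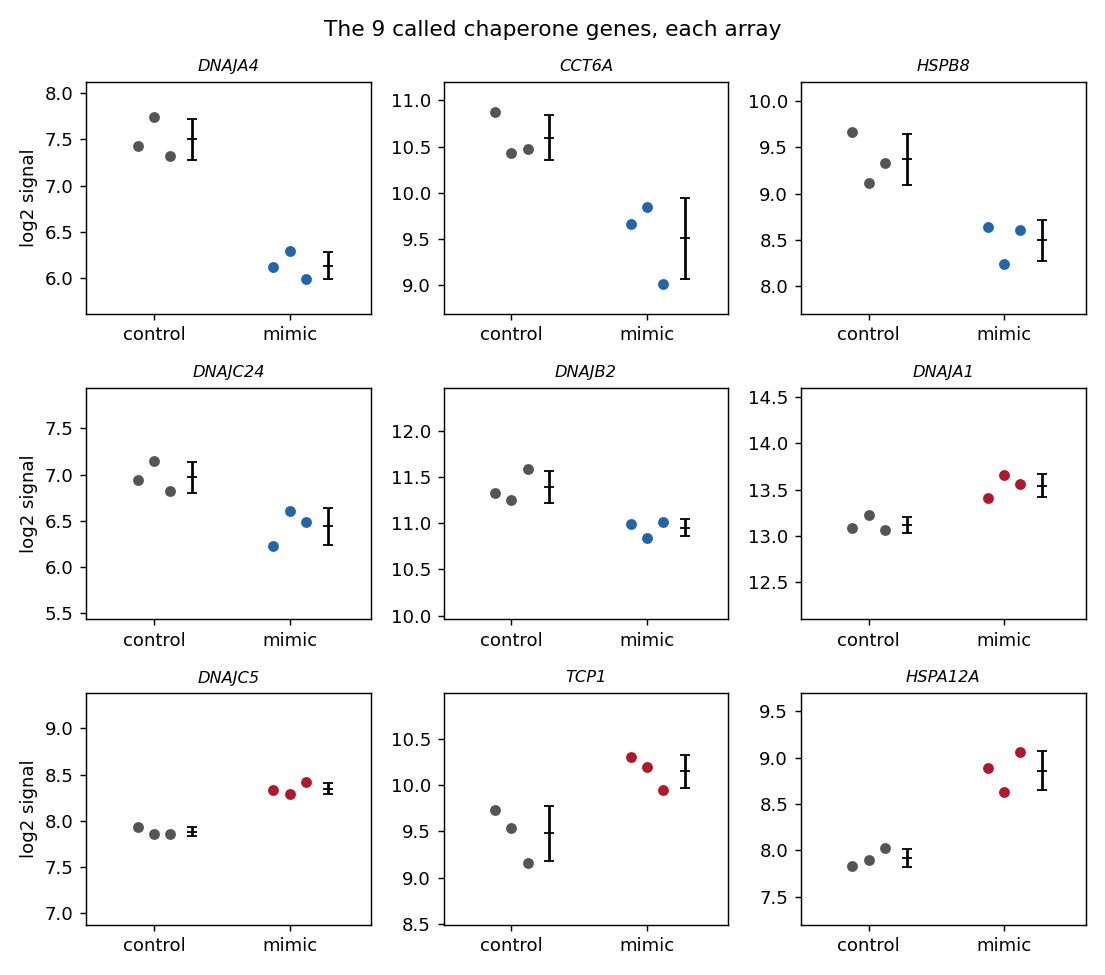
Log2 signal of the 9 called chaperone genes on each array, with control arrays in grey and mimic arrays in colour; the bar beside each set is the mean with its SD (n = 3), and every panel spans the same log2 range. In each panel the mimic arrays lie wholly above or wholly below the control arrays; DNAJA4 shows the widest gap.

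The HSP70 and HSP110 families had 12 genes with a probe and 7 tested, of which HSPA12A rose and 6 did not pass. The share called was 14.3%, beside 26.4% of all genes. HSPA12A encodes a distant relative of HSP70 with an atypical ATP-binding domain. Its values were 7.83, 7.89 and 8.02 in control arrays and 8.89, 8.63 and 9.06 in mimic arrays. The lowest mimic array stood above the highest control array, and the rise was 1.93-fold (log2 change 0.95 ± 0.14, SE; limma adjusted p = 0.00291). HSPA12A changed by 0.70 with no background correction, 0.79 with normexp and 0.70 in the deposited log2 values, called in each. Of its 3 probes, 1 passed the detection filter. HSPA8, the constitutive HSP70 of the cytosol, read 13.44, 13.43 and 13.38 in control arrays and 13.03, 13.18 and 12.96 in mimic arrays. The groups did not overlap, but the change of -0.37 ± 0.12 (SE) did not pass (limma adjusted p = 0.0600), and a second probe gave -0.34. HSPA8 was called lower in 7 of 17 other settings, among them no background correction, the deposited log2 values, a robust variance trend and leaving out mimic replicate 2 (adjusted p from 0.00294 to 0.166 over the 17).

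HSPA1A and HSPA1B, the stress-induced HSP70 pair, encode almost the same protein and share long stretches of sequence, so a probe labelled for one may read the other as well. The probe of HSPA1A read 9.22, 8.70 and 9.11 in control arrays and 8.36, 8.71 and 8.48 in mimic arrays, a change of -0.49 ± 0.17 (SE; limma adjusted p = 0.0743). That of HSPA1B read 10.31, 9.75 and 10.15 in control arrays and 10.30, 10.16 and 10.61 in mimic arrays, a change of 0.29 ± 0.19 (SE; limma adjusted p = 0.309). The 2 probes differed in sign, and neither passed. HSPA1A was called lower in 7 of 17 other settings, with no background correction and without control replicate 2 among them. HSPH1, an HSP110 that exchanges nucleotide on HSP70, changed by 0.33 ± 0.13 (limma adjusted p = 0.113) and was called higher in 3 of 17 other settings. HSPA4 gave 0.29 by its brighter probe and -0.29 by the other, neither called. HSPA6, a strictly stress-induced HSP70, was detected on 2 of 3 control arrays and no mimic array and was not tested.

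Neither HSP90 gene of the cytosol passed at an adjusted p under 0.05 (limma), a threshold that 26.4% of all genes reached. HSP90AA1, the inducible form, read 13.05, 13.40 and 13.17 in control arrays and 13.24, 13.62 and 13.24 in mimic arrays. The groups overlapped, and the change of 0.15 had an interval from -0.21 to 0.52. HSP90AB1, the constitutive form, changed by 0.09 with an interval from -0.21 to 0.39. At an unadjusted p under 0.05, limma called 0 of these 2 genes as well, beside 39.9% of all genes.

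The chaperonin CCT is built of 8 different subunits in each ring, and all 8 general subunits were tested. CCT6A, the zeta subunit, fell, TCP1, the alpha subunit, rose and the other 6 did not pass. The share called, 25.0%, was near the 26.4% of all genes. The median over the 8 was -0.02. CCT6A read 10.87, 10.43 and 10.48 in control arrays and 9.67, 9.85 and 9.02 in mimic arrays. The groups did not overlap, and the fall was 2.12-fold (log2 change -1.09 ± 0.23, SE; limma adjusted p = 0.0118). A second CCT6A probe gave -0.37 and did not pass over all detected probes (limma adjusted p = 0.125), and with the mean of both probes the gene's change was -0.73 and still called. CCT6P1, a transcribed pseudogene copy of CCT6A that was left out of the set, had 1 bright probe with a change of -0.71 ± 0.17 (SE; limma adjusted p = 0.0183 over all detected probes), and signal of the 2 loci cannot be told apart here.

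TCP1 moved the other way on all of its probes. The probe used read 9.73, 9.54 and 9.16 in control arrays and 10.30, 10.19 and 9.95 in mimic arrays. All mimic arrays were above all control arrays, a rise of 1.59-fold (log2 change 0.67 ± 0.18, SE; limma adjusted p = 0.0284). The 2 dimmer probes gave 0.53 and 0.95, both called over all detected probes. By the first probe alone TCP1 lost its call when control array 2 or 3, or mimic array 1 or 2, was dropped (limma adjusted p up to 0.0944). It also lost it when dim probes were kept (0.0625).

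The remaining subunits spread between these 2. CCT7, the eta subunit, gave changes of 0.37, 0.33 and 0.32 on its 3 probes, none of them called, and passed in 6 of 17 other settings. CCT2 changed by -0.29 and CCT5 by -0.31, while CCT3 (0.02), CCT4 (-0.05) and CCT8 (0.02) lay near 0, with intervals from -0.29 to 0.32 for CCT3 and from -0.27 to 0.31 for CCT8. CCT6B, the variant subunit known from testis, was detected on no array.

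**Figure D3:**
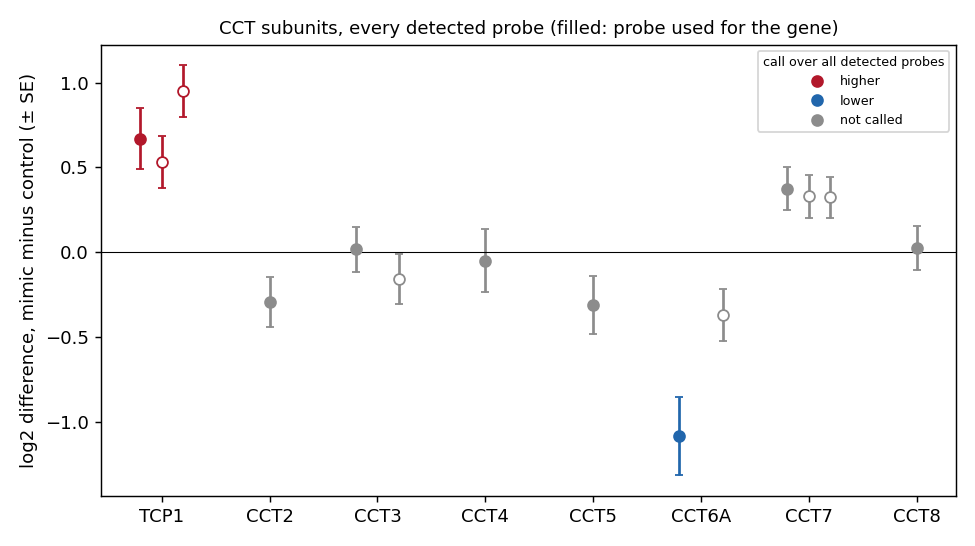
Log2 difference between mimic and control arrays, with SE, for every detected probe of the 8 CCT subunits; filled points are the probes used for the gene and colours show the limma call over all detected probes. All 3 TCP1 probes lie above 0 and both CCT6A probes below it, while the other subunits lie between -0.31 and 0.37.

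Of the class B J-domain genes, which include the stress-induced HSP70 partner DNAJB1, 5 of 8 were tested, 1 fell and none rose (limma). At an unadjusted p under 0.05 the count was also 1, beside 39.9% of all genes. DNAJB2, known from neurons, where it sends clients to the proteasome, read 11.33, 11.25 and 11.58 in control arrays and 10.99, 10.84 and 11.01 in mimic arrays. The groups did not overlap, and the gene fell 1.36-fold (log2 change -0.44 ± 0.14, SE; limma adjusted p = 0.0485). Its dimmer probe gave -0.67 and was called over all detected probes (limma adjusted p = 0.0164). In that fit the brighter probe, on which the gene's call rests, was not called (limma adjusted p = 0.0505). By the brighter probe, dropping any 1 of the arrays ended the call (adjusted p 0.0563 to 0.139), as did keeping dim probes (0.0898) and blocking arrays by number (0.0522). DNAJB1 read 10.02, 10.44 and 10.47 in control and 9.79, 9.86 and 10.24 in mimic arrays, overlapping groups with a change of -0.35 ± 0.18 (SE; limma adjusted p = 0.198). DNAJB6, which suppresses protein aggregation, changed by 0.14, and DNAJB5 by 0.38.

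Class C is the most varied J-domain class, with members tied to endosomes, vesicles, nuclei and translation. Of its 20 genes not on the mitochondrial or endoplasmic reticulum lists, 14 were tested, 1 rose, 1 fell and 12 did not pass. The share called was 14.3%, beside 26.4% of all genes (limma adjusted p under 0.05). DNAJC5, the cysteine string protein of secretory vesicles, read 7.94, 7.86 and 7.85 in control arrays and 8.33, 8.30 and 8.42 in mimic arrays. The values within each group lay close together, and the rise was 1.38-fold (log2 change 0.47 ± 0.11, SE; limma adjusted p = 0.0212). Dropping any array but mimic array 2 ended its call (adjusted p up to 0.0670).

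DNAJC24, which takes part in making diphthamide on the elongation factor eEF2, read 6.94, 7.15 and 6.82 in control arrays and 6.22, 6.61 and 6.49 in mimic arrays. All mimic values were lower, a fall of 1.44-fold (log2 change -0.53 ± 0.15, SE; limma adjusted p = 0.0379). Dropping any array but mimic array 2 ended the call, as did keeping dim probes and using no background correction (change -0.25, adjusted p = 0.0555), the deposited log2 values (0.0550) or a robust variance trend (0.0518). DNAJC13, an endosomal protein, changed by 0.42 (limma adjusted p = 0.0549) and was called higher in 6 of 17 other settings. DNAJC9, a histone chaperone, changed by -0.36 and was called lower in 6 of 17 other settings. DNAJC21, a ribosome assembly factor, changed by -0.48, was called lower with array weights and gave -0.28 with the mean of its probes.

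The genes listed as exchange factors, BAG1 to BAG6 and HSPBP1, gave no call. The list follows gene names, and exchange activity of each was not checked. At an adjusted p under 0.05 (limma) 0 of 6 tested passed, beside 26.4% of all genes. At an unadjusted p under 0.05 there were 3, BAG6 among them, a threshold that 39.9% of all genes reached. BAG6, which guards newly made membrane proteins, had a change of 0.43 ± 0.14 (SE; limma adjusted p = 0.0635). Its second probe gave 0.50 and was called over all detected probes (limma adjusted p = 0.0387), and the gene was called higher in 7 of 17 other settings. BAG4, which binds HSP70 and death receptors, changed by -0.45. Its dimmer probe was detected on 3 control arrays and no mimic array, so it passed the filter through the control group alone. The difference of -0.52 on that probe is therefore not a measured size, and its call is not counted as support. By the brighter probe, BAG4 was called lower with array weights. BAG2 changed by -0.34, and HSPBP1 by -0.31 with a call in array weights alone. BAG5 gave -0.27 by its brighter probe, 0.05 by the other and -0.11 by their mean. BAG1 was detected on no array.

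The genes listed as mitochondrial, 8 tested, and as endoplasmic reticulum, 5 tested, also gave 0 calls each at an adjusted p under 0.05 (limma), beside 26.4% of all genes. At an unadjusted p under 0.05 there were 2 and 1, beside 39.9% of all genes. HSPD1 and HSPE1, the HSP60 and HSP10 of the mitochondrial chaperonin, changed by 0.18 (interval -0.16 to 0.52) and -0.10 (interval -0.39 to 0.19). HSPA9, the mitochondrial HSP70, changed by 0.23, and its partner DNAJA3 by 0.40 (limma adjusted p = 0.0665). DNAJA3 was called higher in 6 of 17 other settings. DNAJC10, a reductase of the endoplasmic reticulum, changed by 0.38 and was called higher in 3 of 17 other settings. Its second probe was dim, with a mean log2 level of 5.77 beside 9.15 for the first, and was detected on 1 mimic array. That probe gave -0.13, and the mean of both 0.12 (limma adjusted p = 0.681).

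HSF1 did not pass the test. Its values were 8.12, 8.02 and 7.60 in control arrays and 7.55, 7.76 and 7.49 in mimic arrays, overlapping groups with a change of -0.32 ± 0.17 (SE; limma adjusted p = 0.214) and an interval from -0.70 to 0.07. A list of 12 members known as HSF1 target genes (HSPA1A, HSPA1B, HSPA8, HSPH1, DNAJA1, DNAJB1, HSPB1, HSP90AA1, HSP90AB1, HSPD1, HSPE1 and BAG3) was tested in full. DNAJA1 was the 1 member called, 8.33% of the list beside 26.4% of all genes, and 4 of 12 had an unadjusted p under 0.05, beside 39.9% of all genes. The median change of the 12 was 0.07, from -0.49 for HSPA1A to 0.42 for DNAJA1.

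HSF1 binds repeats of a short unit, and the heat shock element letters GAANNTTCNNGAA, read on both strands, were searched in RefSeq promoter windows (GRCh38.p14, 250 bases before to 50 after each start). Of 75 members with a window, 7 held a match, 9.33% beside 0.608% of 27305 genes with a window. Among them were 6 tested genes, with changes from -0.37 to 0.42 and 1 call, DNAJA1. The stretches around the match nearest to the start are shown because they hold the exact matches, to be read beside the measured changes. Other forms of the element were not searched. Capitals mark the matching letters, overlapping matches joined, 5′ to 3′ on the gene's strand.
DNAJA1: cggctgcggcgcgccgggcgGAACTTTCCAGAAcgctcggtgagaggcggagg
DNAJB6: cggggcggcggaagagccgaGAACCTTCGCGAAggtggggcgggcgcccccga
HSP90AA1: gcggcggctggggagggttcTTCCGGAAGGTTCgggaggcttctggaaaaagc
HSP90AB1: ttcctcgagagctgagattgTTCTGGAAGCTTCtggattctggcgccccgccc
HSPA8: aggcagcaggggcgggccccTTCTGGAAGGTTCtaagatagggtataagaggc
HSPD1: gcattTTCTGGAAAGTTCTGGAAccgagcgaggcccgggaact
These lie at chr9:33025256-33025308 (plus strand) for DNAJA1, chr7:157336853-157336905 (plus) for DNAJB6, chr14:102087100-102087152 (minus) for HSP90AA1, chr6:44247811-44247863 (plus) for HSP90AB1, chr11:123062159-123062211 (minus) for HSPA8 and chr2:197500048-197500090 (minus) for HSPD1. The 7th, HSPA6, was not tested. Changes beside these letters were 0.42 for DNAJA1, 0.14 for DNAJB6, 0.15 for HSP90AA1, 0.09 for HSP90AB1, -0.37 for HSPA8 and 0.18 for HSPD1. A match describes the sequence and is not a measured binding site. The DNAJA1 match lies after the start. No match to these letters was found in the windows of DNAJA4, HSPB8, HSPA12A, TCP1, DNAJB2 and DNAJC5. CCT6A, DNAJC24, HSPA1A, HSPA1B, DNAJB1, HSPB1 and HSPH1 were not among the 7 either, for lack of a match or of a window.

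Of the 85 genes, 20 did not reach detection on 3 arrays and were not tested: BAG1, CCT6B, CCT8L2, DNAJB13, DNAJB7, DNAJB8, DNAJC16, DNAJC18, DNAJC2, DNAJC5B, DNAJC5G, DNAJC6, HSPA12B, HSPA1L, HSPA2, HSPA4L, HSPA6, HSPB6, HSPB7 and HSPB9. The brightest probe of 16 of them was detected on no array, and that of 4 on 1 or 2 arrays. Of the 65 tested, 63 were detected on all 6 arrays. DNAJC12 and the readthrough gene DNAJC25-GNG10 were detected on fewer, and neither passed. The probe annotated to DNAJC25-GNG10 may read GNG10 instead. HSPBAP1, a partner of HSPB1 that the symbol rule also takes in, changed by 0.40 and did not pass.

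Several calls were lost when 1 array was dropped. Of the 9 called genes, 4 (DNAJA4, CCT6A, HSPB8 and HSPA12A) kept their call in all 17 other settings run at an adjusted p under 0.05. At an adjusted p under 0.01, DNAJA4 and HSPA12A passed, and CCT6A (0.0118) and HSPB8 (0.0103) did not. The other 5 lost it in at least 5 of the 17. Counts over the whole set ran from 1 to 4 higher and from 3 to 6 lower when 1 array at a time was left out. Dropping control array 1 left 2 higher and 3 lower, and dropping mimic array 3 left the same numbers. Dropping control array 2 left 1 and 4. Dropping control array 3, or mimic array 1, left 1 and 3. Without mimic array 2, 10 were called. All genes were called at 26.3% in that fit and at 17.3% to 21.0% in the others, beside 26.4% with all arrays.

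**Figure D4:**
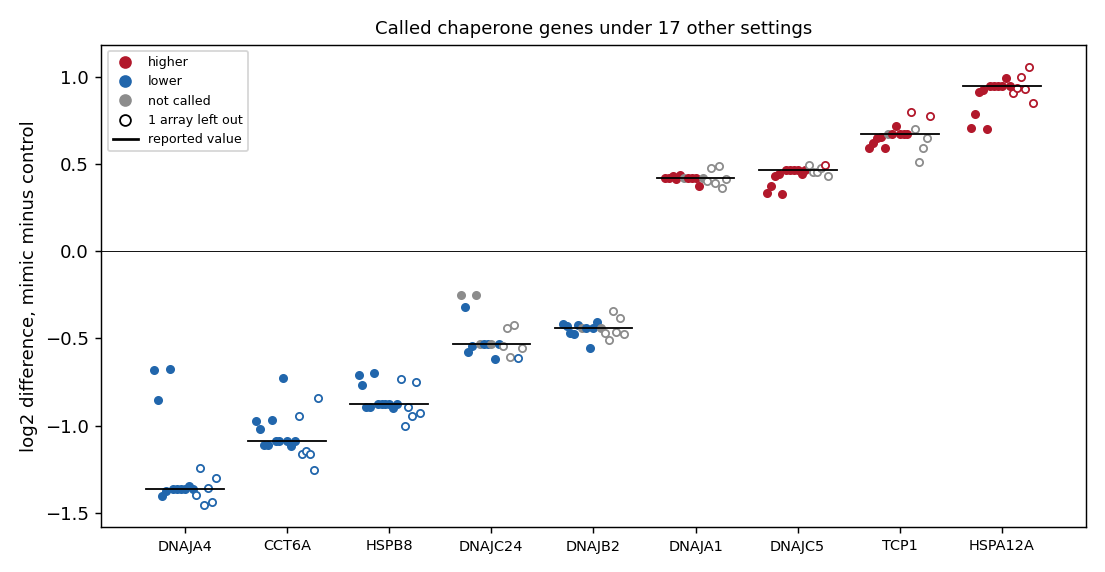
Log2 difference between mimic and control arrays for the 9 called chaperone genes under 17 other settings, with open points where 1 array was left out and a line at the reported value; grey points are settings where the gene was not called. Every point keeps the sign of the reported value, and DNAJA4, CCT6A, HSPB8 and HSPA12A have no grey point.

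Co-chaperones outside the set were counted from a list of 39 genes: HSP90 partners, prefoldin subunits that feed CCT, phosducin-like proteins, exchange factors and others. Of these, 37 had a probe and 33 were tested; 6 fell, 4 rose and 23 did not pass, so 30.3% were called beside 26.4% of all genes. HSBP1, which binds trimers of HSF1 and restrains it, read 11.21, 11.55 and 11.28 in control arrays and 10.47, 10.34 and 10.17 in mimic arrays. All mimic arrays were lower, and it fell by 1.03 ± 0.14 on the log2 scale (SE; limma adjusted p = 0.00199). UNC45A, a chaperone of myosin, fell by 0.83 ± 0.13 (adjusted p = 0.00339).

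Of the partners of CCT on the list, some were called, in both directions, and others did not pass. PFDN1, a prefoldin subunit, fell by 0.64 ± 0.12 (SE; limma adjusted p = 0.00613), and PDCL, a phosducin-like cofactor of CCT, fell by 0.71 ± 0.16 (adjusted p = 0.0159), a call lost when control array 1 or 2 was dropped. PDCL3, another phosducin-like protein, rose by 0.62 ± 0.13 (adjusted p = 0.00993). The other tested prefoldin subunits did not pass, with changes of 0.28 for PFDN5, 0.19 for VBP1, 0.12 for PFDN6 and -0.08 for PFDN2. TXNDC9 changed by -0.41 and did not pass either (limma adjusted p = 0.107). GRPEL2, an exchange factor of mitochondrial HSP70, fell by 0.60 ± 0.14, a call lost when control array 1 or 2, or mimic array 1, was dropped.

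SEC63, a J-domain protein of the endoplasmic reticulum translocon, rose by 0.79 ± 0.15 (SE; limma adjusted p = 0.00793). STUB1, the ubiquitin ligase CHIP that acts on HSP70 and HSP90 clients, rose by 0.66 ± 0.13 (adjusted p = 0.00774), a call that ended with the mean of its probes (0.45, adjusted p = 0.0571). SERPINH1, the collagen chaperone HSP47, rose by 0.54 ± 0.14 and lost its call when either array 1 or either array 3 was dropped, and with the replicate block. FKBP5, an HSP90 partner known from steroid receptors, fell by 0.53 ± 0.13, and dropping any array but mimic array 2 ended its call. STIP1, which links HSP70 to HSP90, changed by 0.43, and CDC37, which brings kinases to HSP90, by -0.35. Both missed the threshold (limma adjusted p = 0.0734 and 0.0748) and passed it in other settings.

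**Figure D5:**
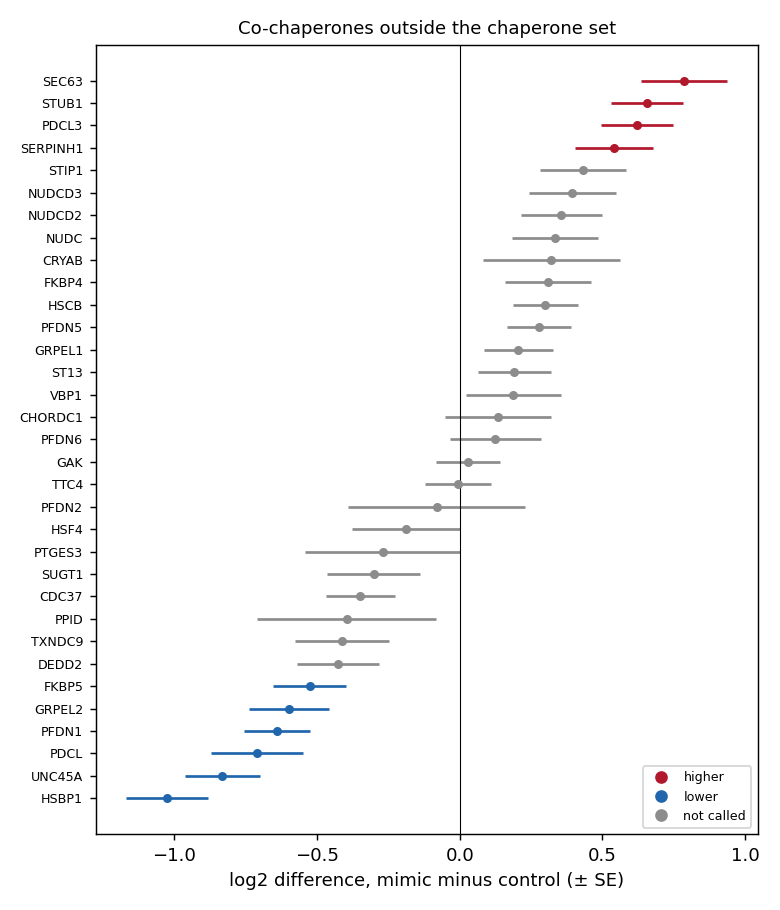
Log2 difference between mimic and control arrays, with SE, for the 33 tested co-chaperones outside the set (n = 3 arrays per group). The 6 called lower run from FKBP5 to HSBP1 at -1.03, and the 4 called higher from SERPINH1 to SEC63 at 0.79.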

How the data were processed

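The deposited intensity table covers 47323 probes on 6 arrays and is described per the file headers as not normalized. It pairs every intensity with a detection p-value, per the file headers. The authors also deposited log2 values. Sources used here do not say how these were made, nor name the scanner software. Per the labels' protocols, RNA was column-purified with DNase treatment and made into biotinylated cRNA. Probes with 1 gene (30113) were named from GEO's platform annotation, matched by Entrez identifier to RefSeq (GRCh38.p14).

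Background was corrected by the nec function (R 4.3.3, limma 3.58.1; offset 16, with the negative controls inferred from detection p-values), followed by quantile normalization and log2. Probes with detection p under 0.05 on at least 3 arrays were kept, and a gene was represented by its brightest kept probe. The 14775 rows (10734 genes and 4041 probes without a single gene) were compared with lmFit and eBayes, Benjamini-Hochberg adjusted over all rows. Values for further probes come from the same fit over all 18113 kept probes, adjusted over those. Intervals are limma's at 95%. The fit was tested on simulated data.

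The rule for named genes took up to 12 called falls and 12 called rises (5 and 4 were called), 13 fixed genes and up to 5 called co-chaperones each way; other genes were named after their values were seen. The members and lists were chosen with earlier results of these data known. By the probe used, no tested member was undetected in a whole group. The number of arrays limits precision. Alternatives covered background, normalization, deposited values, dim-probe filter, probe rule, variance model, array weights, threshold, replicate block and each array left out with the same probes kept.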

Additional observations from a re-analysis of the deposited data

How the results depend on the processing

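Named genes kept their direction in every alternative run except some with changes near 0, none called in the setting concerned. BAG3 (reported 0.02) gave -0.00965 with array medians set equal, -0.0104 with cyclic loess, and -0.00965 to 0.0528 with 1 array left out. CCT3 gave -0.0025 with cyclic loess, -0.0700 with the mean of probes, -0.0028 with array weights and -0.0768 to 0.0747 with 1 array left out. HSPE1 gave 0.14 with the mean of probes. With 1 array left out, CCT4 ran from -0.203 to 0.100, CCT8 from -0.0499 to 0.0663 and HSPB1 from -0.0159 to 0.109.

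Counts of chaperone genes called, reported as 4 higher and 5 lower, moved with the setting. With no background correction, with the deposited log2 values and with eBayes with trend and robust, 17 were called each time, 10 of them higher. Detection on all 6 arrays gave 15 called, 8 of them higher. There were 8 higher and 8 lower with normexp at an offset of 50, and 9 higher and 12 lower with array weights. There were 2 higher and 3 lower with no filter on dim probes, and 1 of each at an adjusted p under 0.01. Chaperone genes were called at a lower share than all genes in every setting run, from 3.08% against 13.3% (adjusted p under 0.01) to 32.3% against 35.8% (array weights). With 1 array left out, 1 to 4 were higher and 3 to 6 lower, and all genes called ran from 1854 to 2818 beside 2832 reported (1430 at an adjusted p under 0.01). Co-chaperones called higher, 4 as reported, were 10 with no background correction, 9 with the deposited log2 values or trend and robust, and 7 with array weights. In the same order, all genes were called, either way, at 32.6%, 32.5%, 32.4% and 35.8%, beside 26.4% as reported. Those called lower, 6 as reported, were 3 at an adjusted p under 0.01; with 1 array left out, 3 to 5 were higher and 3 to 7 lower. The cause of these shifts was not tested.

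The labels do not say that same-numbered arrays belong together, and the replicate numbers were not taken as pairs. Deviations of same-numbered arrays correlated at 0.02, 0.08 and 0.10, and 4 of 6 arrays correlated best with their own number. These values do not settle whether the arrays are paired. With the replicate number as a block, 4 chaperone genes were higher and 4 lower, and 2658 genes were called.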
